A study of Bos indicus and Bos taurus with 17 samples.

Results

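Lactose, the main sugar of milk, is built from glucose, and the 8 genes described here carry the steps from glucose uptake to the finished sugar: SLC2A1 and SLC2A8 (glucose transport), HK1, PGM1 and UGP2 (hexose phosphates and UDP-glucose), SLC35A2 (import of UDP-galactose into the Golgi) and B4GALT1 and LALBA (lactose synthase). They were chosen by symbol for their place in the path. Each was carried by exactly 1 entry of the deposited expression table, which held 61264 entries, 25121 of them with a gene name and 21631 distinct names. All 8 members were found.

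RNA was sequenced from epithelial cells that had been captured from milk with beads bearing an antibody to cytokeratin 18 (the protein of KRT18), from Kashmiri cattle, the local hill breed, and from Jersey cattle, an introduced dairy breed. Milk was taken at 3 stages, day 15 (D15, early), day 90 (D90, mid) and day 250 (D250, late lactation), which gave 6 groups. The labels list 3 samples for each group except Jersey at D90, which has 2, and put 11 of the 17 samples in the 2nd lactation and 6 in the 3rd. The study's methods instead put all cows in their 3rd lactation. How the labelled lactation number falls over the groups is not given here, so it was not separated from stage or breed. Each stage also fell in 1 calendar month, March for D15, July for D90 and December for D250, so stage and season cannot be told apart. By the study's methods the cows of each breed, 3 of each, were milked at all 3 stages, so the groups of a breed share cows. The table gives 1 value per group, in FPKM (fragments assigned to a gene, divided by its transcript length and by the size of the library). The table therefore held no replicate value, SD or p-value, and a comparison here sets 1 number against another. The study itself tested stage and breed differences with Cuffdiff and measured SLC2A1 and SLC2A8 among other genes by quantitative PCR. Those results are not used here. The study gives the reads of each library, but the table holds no counts, so no counting error can be put on a value.

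In the mammary epithelial cell glucose enters mainly through SLC2A1 (GLUT1), is phosphorylated by a hexokinase and moved by a phosphoglucomutase to the position from which UGP2 makes UDP-glucose, the source of UDP-galactose. SLC35A2 carries UDP-galactose into the Golgi, where B4GALT1 joins galactose to glucose. B4GALT1 does so only when bound to alpha-lactalbumin, the milk protein encoded by LALBA, and the lactose made draws water into the secretory vesicle, which sets much of the volume of milk.

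The samples were checked against marker genes of the cell types that milk holds. All 14 epithelial markers were found and none was at 0 in any group, yet their summed level ranged from 133 FPKM in Jersey D90 to 6832 FPKM in Kashmiri D15, and KRT18 itself ranged from 1.59 to 51.3 FPKM. Neutrophil markers (9 of 12 found, none at 0) summed to 182 to 622 FPKM in the Kashmiri groups and 5047 to 15632 FPKM in the Jersey groups. Macrophage markers (10 of 10 found, none at 0) summed to 109 to 491 FPKM in the Kashmiri and 1014 to 2145 FPKM in the Jersey groups, and T and NK cell markers (10 of 10 found, none at 0) to 341 to 1476 FPKM in the Kashmiri and 93.8 to 269 FPKM in the Jersey groups. B cell markers (6 of 6 found) summed to at most 78.0 FPKM and red blood cell markers (3 of 6 found) to at most 0.939 FPKM, with HBB or ALAS2 at 0 in some groups. A gene in this table can be listed at 0 because its estimate failed: GAPDH, which all cells use, was listed at 0 in 4 of the 6 groups, and 19 (12.3%) of the 154 names that passed 2000 FPKM somewhere had a 0 elsewhere.

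In each comparison a gene was counted when it was above 0 in both groups and at least 1 FPKM in either, and called higher or lower when its log2 ratio with 1 FPKM added to both values was at least 1 in size. Ratios printed in the text are of the plain FPKM values. Directions were recomputed after rescaling the groups in 3 ways over all genes (to the sum without milk protein genes, by the upper quartile, and by the median ratio), which moved the median of all genes by up to 1.01 on the log2 scale. Of the 67 log2 ratios of the members, 53 kept their sign under all of these, and each direction of a single member below held under these unless the sentence says otherwise.

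The glucose transporter SLC2A1 stood at 36.0, 17.9 and 24.6 FPKM in the Kashmiri groups (here and below a series of 3 values runs D15, D90, D250). In the Jersey groups it stood at 41.0, 81.7 and 111 FPKM. The breeds were close at D15 (1.14-fold higher in Jersey) and apart at both later stages, where Jersey was 4.55-fold higher at D90 and 4.50-fold higher at D250. In bulk samples such as these, fewer cells of a type and less RNA per cell cannot be told apart. Within Jersey, D250 was 2.71-fold above D15, while in Kashmiri cattle D90 was 2.01-fold below D15 on the plain ratio, a log2 ratio of -0.97 with 1 FPKM added, which misses the call.

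SLC2A8 (GLUT8), a glucose transporter held largely on membranes inside the cell, was at 33.0, 16.7 and 17.9 FPKM in Kashmiri cattle. The Jersey values were 47.1, 16.6 and 8.87 FPKM. Both breeds were highest at D15 (for Kashmiri cattle, D15 and D250 changed order when scaled to the sum), and at D90 they were almost the same (16.7 and 16.6 FPKM, in an order that turned when scaled to the sum). Jersey D250 was 5.31-fold below Jersey D15 and 2.02-fold below Kashmiri D250, the latter a log2 ratio of -0.94 with 1 FPKM added and so not called. The ratio of SLC2A1 to SLC2A8 was 1.09, 1.08 and 1.38 in the Kashmiri groups and 0.870, 4.93 and 12.5 in the Jersey groups, so the pair was near equal in 4 groups and SLC2A1 led in Jersey D90 and D250.

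HK1, the broadly expressed hexokinase that commits glucose to metabolism as glucose 6-phosphate, was at 10.8, 21.0 and 21.4 FPKM in Kashmiri cattle. In Jersey cattle it was at 30.6, 45.0 and 26.8 FPKM. Jersey exceeded Kashmiri cattle 2.83-fold at D15 and 2.14-fold at D90, and by 1.25-fold at D250, where the order turned when scaled to the sum or by the upper quartile. Kashmiri D90 and D250 were 1.95-fold and 1.98-fold above D15, just short of the call.

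PGM1, the phosphoglucomutase that links glucose 6-phosphate to glucose 1-phosphate, had the narrowest range in Kashmiri cattle of the 7 members above 0 at all stages, with 19.0, 15.7 and 19.3 FPKM. When scaled to the sum, the Kashmiri ranges of SLC35A2 and SLC2A8 were narrower than that of PGM1. Jersey cattle gave 19.5, 28.0 and 11.5 FPKM. The D15 values of the breeds differed by 1.02-fold, in an order that turned by the upper quartile. The Jersey D250 value was 2.43-fold below Jersey D90, the only one of the 9 comparisons in which PGM1 was called as deposited.

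UGP2, which makes the UDP-glucose used for lactose, glycogen and glycoproteins, was at 190.2, 49.7 and 114 FPKM in Kashmiri cattle. In Jersey cattle it was at 56.1, 91.3 and 307 FPKM. Apart from LALBA it was the highest member in 5 groups, and it was at or above 90.4% to 97.2% of the names with a value over 0 in each group. Kashmiri D90 was 3.82-fold below D15 and D250 was 2.28-fold above D90. Jersey D250 was 3.36-fold above D90 and 5.47-fold above D15. Jersey was therefore 3.39-fold below Kashmiri cattle at D15 and 2.70-fold above them at D250.

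SLC35A2, the Golgi carrier that brings UDP-galactose to the galactosyltransferases, was at 11.9, 8.07 and 6.82 FPKM in Kashmiri cattle. In Jersey cattle it was at 10.3, 14.2 and 21.4 FPKM. The Kashmiri value was highest at D15, although its order against D250 turned when scaled to the sum, and the Jersey value was highest at D250. The breeds were 1.15-fold apart at D15 (Kashmiri higher, turned when scaled to the sum) and 3.14-fold apart at D250 (Jersey higher).

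B4GALT1, the galactosyltransferase that is the catalytic part of lactose synthase and that also galactosylates glycoproteins, was at 112, 52.0 and 96.7 FPKM in Kashmiri cattle. In Jersey cattle it was at 37.6, 53.5 and 175 FPKM. Kashmiri D90 was 2.16-fold below D15, and Jersey D250 was 3.27-fold above D90 and 4.65-fold above D15. Jersey was 2.98-fold below Kashmiri cattle at D15, level with them at D90 (1.03-fold higher, turned by the upper quartile and the median ratio) and 1.81-fold above them at D250. UGP2 and B4GALT1 were thus both lower in Jersey at D15 and higher at D250, and the ratio of UGP2 to B4GALT1 kept between 0.957 and 1.76 over the 6 groups.

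LALBA, the milk protein that turns B4GALT1 towards glucose, was listed at 0 at D15 in both breeds, which can be a failed estimate, so no ratio to D15 is given. In Kashmiri cattle it was at 12933 FPKM at D90 and 13031 FPKM at D250, the 4th and the 1st highest of all names. In Jersey cattle it was at 297 FPKM at D90 (372nd) and 5140.1 FPKM at D250 (10th). The same doubt bears on its values above 0, since the casein genes CSN1S1 and CSN2 were listed at 0 in 5 of the 6 groups, and so on each LALBA ratio given here. It bears on the ranks too, since CSN1S1, CSN2, CSN3 and PAEP were all listed at 0 at Kashmiri D90 and D250 and at Jersey D250. In the study's own list of highly expressed genes the caseins stood above LALBA in every group. The Kashmiri LALBA values differed by 1.01-fold, in an order that turned by the median ratio, whereas Jersey D250 was 17.3-fold above Jersey D90. As deposited, Jersey was 43.6-fold below Kashmiri cattle at D90 and 2.54-fold below at D250. The study's own list of highly expressed genes departs from this in part. There LALBA was high in all 6 groups, D15 included, and Jersey was above Kashmiri cattle at D15 and D90. At D250 Jersey was below Kashmiri cattle in that list too, by less than in the deposited values. The Jersey rise from D90 to D250 was small there. The LALBA ratios here therefore describe the deposited values only.

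**Figure D1:**
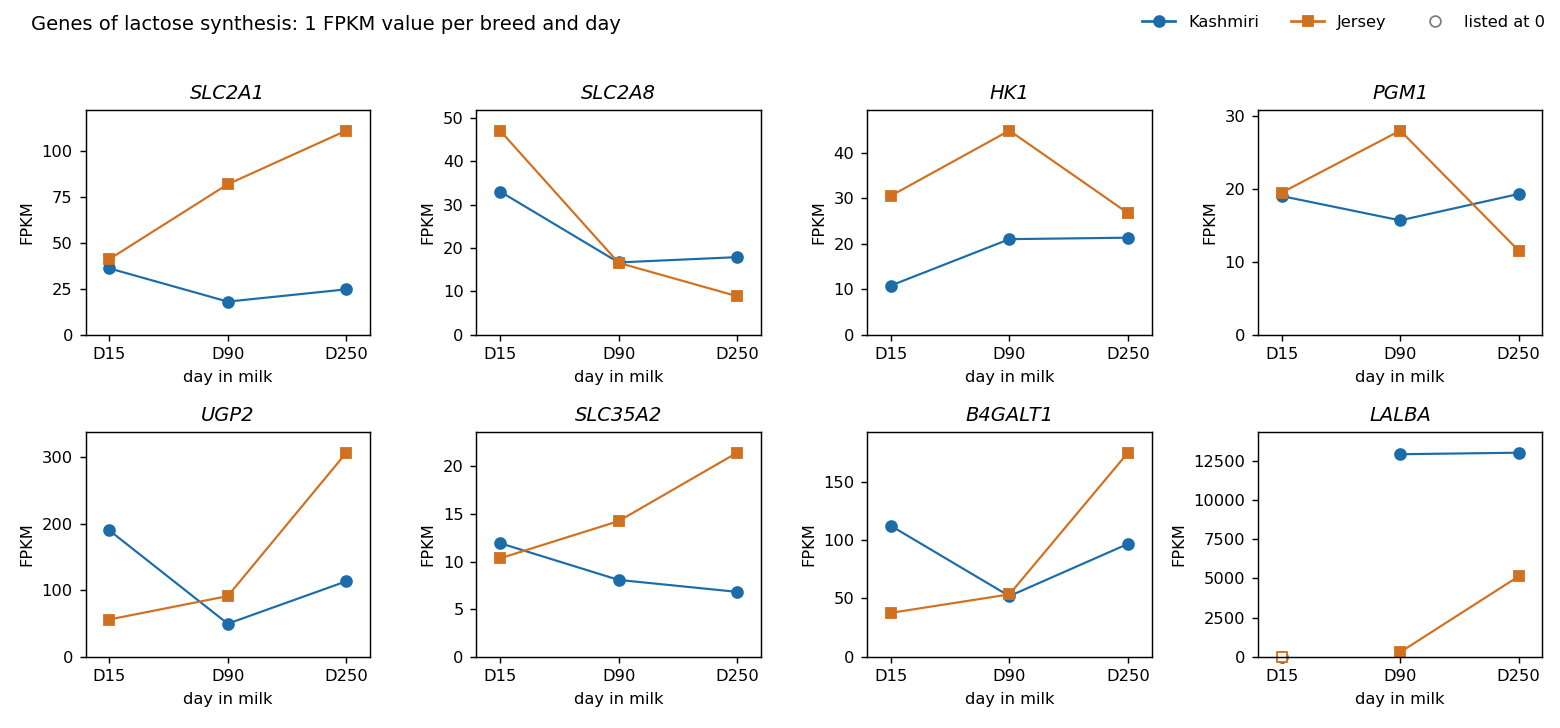
FPKM of each of the 8 members (one panel each, vertical axis from 0) at D15, D90 and D250 (horizontal axis), with 1 point per breed and stage and no error bar because each group has 1 value; open LALBA symbols at D15 are listed at 0 in both breeds, overlap each other and are joined to no line. The Jersey points of SLC2A1, UGP2, SLC35A2 and B4GALT1 are highest at D250, at 111, 307, 21.4 and 175 FPKM, and the Kashmiri points of the same genes are highest at D15, although D250 passes D15 for all 4 when scaled to the sum.

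As deposited, B4GALT1 varied less than its partner LALBA. The ratio of LALBA to B4GALT1 was 249 and 135 at Kashmiri D90 and D250, and 5.56 and 29.4 at Jersey D90 and D250. At D90 B4GALT1 was at 52.0 and 53.5 FPKM in the breeds. Nearly the whole breed difference in this ratio at D90 thus lay in the deposited LALBA values, which the study's own list does not bear out. The other milk proteins, kept as a reference for LALBA, could not be set beside it in most groups: CSN1S1, CSN2 and PAEP had values above 0 only in Jersey D90 (949, 1068 and 2076 FPKM), and CSN3 was above 0 only in Kashmiri D15, Jersey D15 and Jersey D90 (8174, 1817 and 653 FPKM).

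From early to mid lactation in Kashmiri cattle, 2 of the 7 members counted were called, UGP2 and B4GALT1, both lower at D90, where 33.1% of 11238 genes tested were called (14.5% higher, 18.6% lower). The median log2 ratio of the members was -0.99 and that of all genes -0.01. Under each of the 3 rescalings B4GALT1 lost its call and HK1 was called higher instead. All but HK1 were lower at D90, with PGM1 turning when scaled to the sum. From D90 to D250 only UGP2 of 8 members was called, higher at D250, against a background of 17.5% of 11379 genes (8.81% higher, 8.66% lower), with medians of 0.20 for the members and 0.04 for all genes, and SLC2A1 and B4GALT1 were called higher as well when scaled to the sum. From D15 to D250 none of 7 members was called at a background of 25.4% of 11434 genes (11.0% higher, 14.3% lower), with medians of -0.55 (0.46 scaled to the sum) and -0.05. HK1 was called higher under each rescaling, and the 5 members that were lower at D250 (SLC2A1, SLC2A8, UGP2, SLC35A2 and B4GALT1) were all higher when scaled to the sum, B4GALT1 also by the upper quartile.

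From early to mid lactation in Jersey cattle, only SLC2A8 of the 7 members counted was called, lower at D90, where 29.4% of 11022 genes were called (12.6% higher, 16.8% lower). The other 6 were higher at D90 by 1.38-fold to 1.99-fold, none of which is a call, although SLC2A1 was called under each rescaling. The median was 0.52 for the members and -0.08 for all genes. From D90 to D250, UGP2, B4GALT1 and LALBA were called higher and PGM1 lower, 4 of 8 members at a background of 20.5% of 10901 genes (16.5% higher, 3.95% lower), with medians of 0.51 and 0.18. SLC2A8 was also called lower by the upper quartile and to the sum, and HK1 to the sum. From D15 to D250, SLC2A1, UGP2 and B4GALT1 were called higher and SLC2A8 lower, 4 of 7 members at a background of 42.1% of 11258 genes (24.4% higher, 17.7% lower), with medians of 1.05 and 0.09. SLC35A2 was 2.07-fold higher at D250 on the plain ratio and 0.98 on the log2 scale with 1 FPKM added, just short of the call, which it passed by the median ratio.

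Between the breeds at D15, HK1 was called higher in Jersey and UGP2 and B4GALT1 lower, 3 of 7 members at a background of 28.6% of 11163 genes (15.8% higher, 12.8% lower). At D90, SLC2A1 and HK1 were called higher in Jersey and LALBA lower, 3 of 8 members at a background of 32.5% of 11145 genes (16.8% higher, 15.7% lower). There HK1 lost its call by the upper quartile, and PGM1, UGP2 and SLC35A2 were also called higher when scaled to the sum. At D250, SLC2A1, UGP2 and SLC35A2 were called higher in Jersey and LALBA lower, 4 of 8 members at a background of 34.2% of 11589 genes (22.7% higher, 11.5% lower). The D250 balance turned with the scaling: to the sum, SLC2A1 was called higher and SLC2A8, PGM1 and LALBA lower, and by the upper quartile SLC2A1 and SLC35A2 were called higher and the same 3 lower. The median log2 ratios of Jersey over Kashmiri were 0.03 (-0.08 by the upper quartile), 0.83 and 0.59 (-0.17 scaled to the sum) for the members and -0.15, -0.04 and -0.13 for all genes at the 3 stages. The shares of members called lay on both sides of the background over the 9 comparisons, and with 7 or 8 members 1 gene moves the share by more than 10 percentage points. The comparisons share groups, so a low value in 1 group enters several of them.

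**Figure D2:**
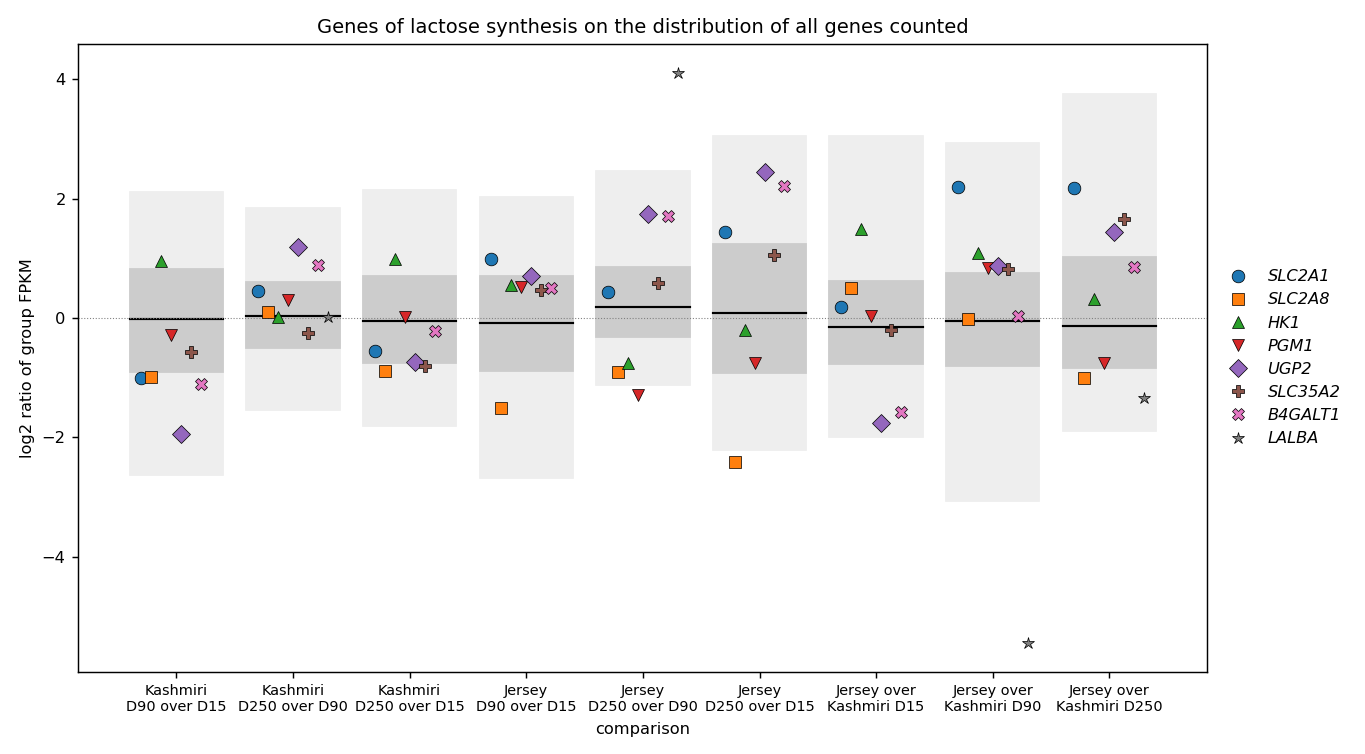
Log2 ratio of plain FPKM (vertical axis) for each member above 0 in both groups (1 symbol each) in the 9 comparisons (horizontal axis), over the spread of all genes counted, with the median as a black line, dark grey from the 25th to the 75th and light grey from the 5th to the 95th percentile; there is no error bar because each group has 1 value. Of all symbols 4 lie outside the light grey, LALBA in Jersey over Kashmiri at D90 (-5.44) and in Jersey D250 over D90 (4.11), SLC2A8 in Jersey D250 over D15 (-2.41) and PGM1 in Jersey D250 over D90 (-1.28). These LALBA ratios rest on deposited values that the study's own list does not bear out.

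The members were not the leading isoform of their family in every group. HK3, a hexokinase known from white blood cells, was at 8.21, 14.8 and 16.4 FPKM in the Kashmiri groups and 121, 78.0 and 96.9 FPKM in the Jersey groups. Its ratio to HK1 was 0.703 to 0.768 in the Kashmiri groups and 3.96, 1.74 and 3.62 in the Jersey groups, so HK1 was the higher of the pair in Kashmiri cattle and HK3 in Jersey cattle. HK2, an inducible hexokinase, was at 4.19, 5.36 and 12.6 FPKM in the Kashmiri groups and 23.6, 32.6 and 44.4 FPKM in the Jersey groups, below HK1 in 5 of the 6 groups and above it in Jersey D250.

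SLC2A1 held the largest share of the 11 glucose transporters found in Kashmiri cattle, with 38.8% to 44.4%, and SLC2A8 followed with 32.3% to 37.4%. Of 12 transporters sought besides these members 9 were found, so the shares and ranks are within an incomplete family. In Jersey cattle SLC2A8 held 33.8% at D15 but 7.61% and 3.70% at D90 and D250. SLC2A6, known from white blood cells, held 41.2% in Jersey D90 (89.7 FPKM) and so passed SLC2A1 there (37.5%), and it did not exceed 2.45 FPKM in any Kashmiri group. SLC2A9, a urate carrier, was at 18.9 to 49.5 FPKM in Jersey and at most 2.02 FPKM in Kashmiri cattle. The insulin-responsive transporter SLC2A4 was below 0.1 FPKM in every group.

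PGM1 led the phosphoglucomutases in 4 of the 6 groups. PGM3, which acts on N-acetylglucosamine phosphate, led in Kashmiri D90 with 45.0%, against 40.8% for PGM1. PGM2 led in Jersey D250 with 24.1 FPKM or 50.1%, against 11.5 FPKM or 23.9% for PGM1. B4GALT1 led the 7 galactosyltransferases of its family in every group, with 43.2% in Jersey D15, 80.0% in Jersey D250 and between 52.9% and 73.0% in the other 4.

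**Figure D3:**
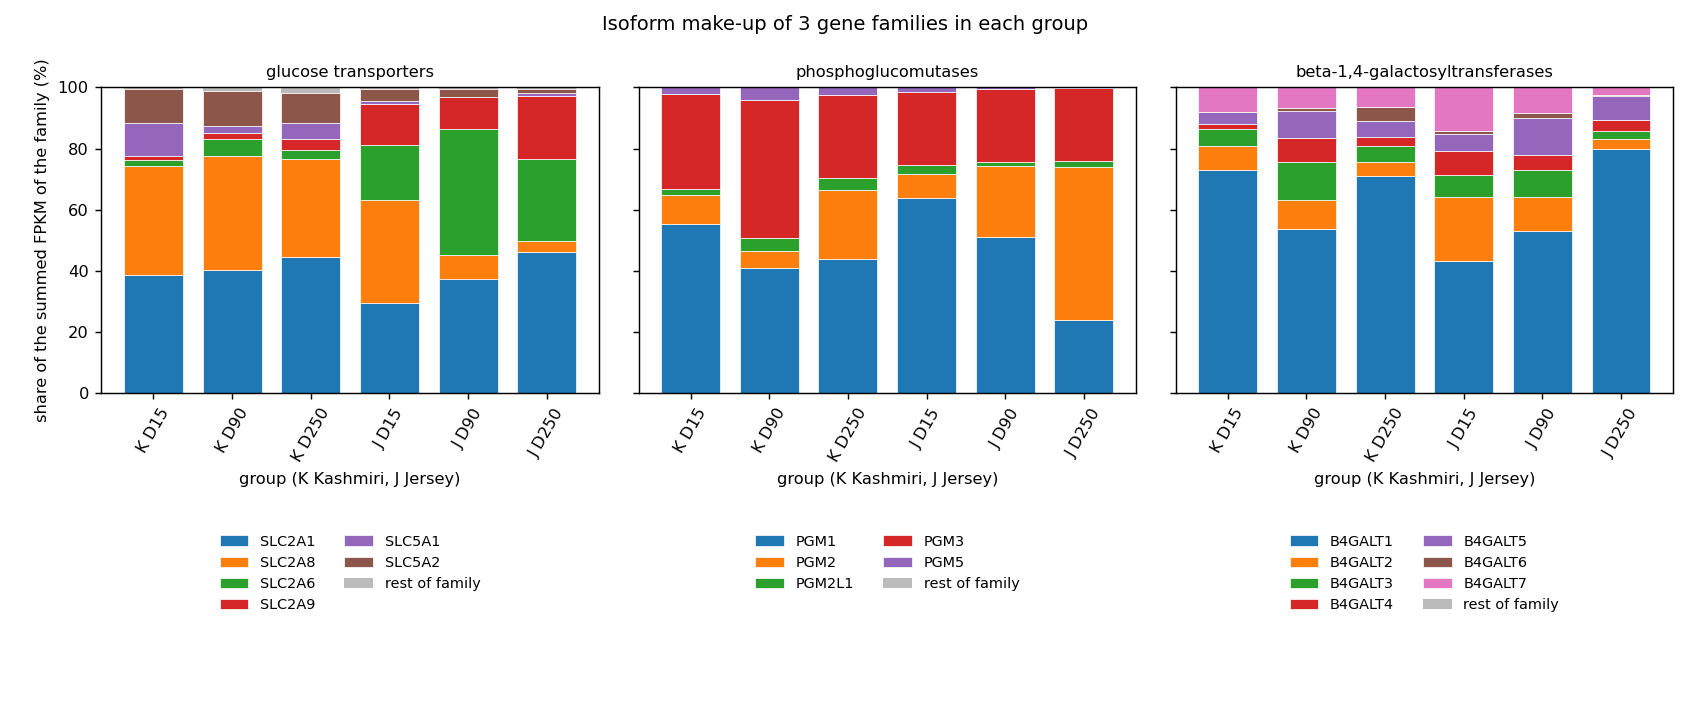
Share (%) of each gene in the summed FPKM of the genes found of 3 families, the glucose transporters (an incomplete set), phosphoglucomutases and beta-1,4-galactosyltransferases, with 1 stacked bar per group and the members at the foot of each bar; no error can be given for 1 value per group. SLC2A8 takes 33.8% of the transporter bar in Jersey D15 and 3.70% in Jersey D250, while B4GALT1 is the largest part of its bar in all 6 groups.

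Among the other genes around the members, GPI, which takes glucose 6-phosphate into glycolysis, was at 66.7, 154 and 133 FPKM in the Kashmiri groups and 325, 674 and 309 FPKM in the Jersey groups. ATP2C2, a Golgi calcium pump abundant in secretory epithelium, was at 147, 16.6 and 30.2 FPKM and at 37.3, 0.796 and 12.1 FPKM.

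Of 50 other genes of the path in lists by role (other glucose transporters, other hexose phosphate enzymes, UDP-sugar enzymes, other Golgi nucleotide sugar transporters, Golgi ion and nucleotide support, other galactosyltransferases), 47 were found. In Kashmiri cattle, 5 were called higher and 7 lower of 39 counted from D15 to D90, 5 and 0 of 40 from D90 to D250, and 7 and 8 of 40 from D15 to D250. Of all genes, 33.1%, 17.5% and 25.4% were called there in either direction. In Jersey cattle the counts were 9 and 4 of 37, 6 and 2 of 39, and 8 and 9 of 38, where 29.4%, 20.5% and 42.1% of all genes were called. For Jersey against Kashmiri cattle they were 9 and 5 of 36 at D15, 11 and 4 of 40 at D90, and 11 and 4 of 42 at D250. The shares of all genes called there were 28.6%, 32.5% and 34.2%. SLC2A6, SLC2A9, HK2, HK3, GPI and GYS1 were among those called higher in Jersey at all 3 stages, and ATP2C2 was among those called lower at all 3.

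The epithelial marker sum stood beside the members as follows. It was 6832, 859 and 2959 FPKM in the Kashmiri groups and 2995, 133 and 1590.2 FPKM in the Jersey groups, lowest at D90 in both. Of the 7 members above 0 in all groups, none was lowest at D90 in both breeds, a pattern counted after the values were seen that 12 of 14 epithelial markers and 2032 of 12079 names (16.8%) showed. Of the other path genes it was shown by 6 of 42, GALM and ATP2C2 among them. GALM and ATP2C2 had their lowest value in Jersey D90, as the epithelial sum had. In Kashmiri cattle taken alone, SLC2A1, SLC2A8, PGM1, UGP2 and B4GALT1 were lowest at D90, as the epithelial sum was. HK1 was lowest there at D15 and SLC35A2 at D250. Scaled to the sum without milk protein genes, PGM1 was lowest at D15 and SLC35A2 at D90. In Jersey cattle none of the 7 members was lowest at D90.

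Divided by the epithelial marker sum, the members gave another picture. Per 100 FPKM of epithelial markers, UGP2 was at 2.78, 5.79 and 3.84 FPKM in the Kashmiri groups and 1.87, 68.8 and 19.3 FPKM in the Jersey groups, and B4GALT1 was at 1.64, 6.05 and 3.27 FPKM and 1.26, 40.3 and 11.0 FPKM. On this scale both were highest at D90 in each breed. LALBA gave 1505 and 440 FPKM at Kashmiri D90 and D250, and 224 and 323 FPKM at Jersey D90 and D250. Jersey was thus lower at both stages on this scale also, from the same LALBA values in doubt. Of the 67 log2 ratios of the members, 28 changed sign when taken this way. Neutrophil and macrophage marker sums were higher in Jersey than in Kashmiri cattle at every stage, as were SLC2A1 and HK1 (HK1 at D250 not when scaled to the sum or by the upper quartile). The macrophage list was split at D250. Of 9 markers counted there, 5 were higher in Jersey and 4 (MSR1, C1QA, C1QB and C1QC) lower, with a median log2 ratio of 0.13. The part of the epithelial and white blood cell content in the members' values was not tested.

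**Figure D4:**
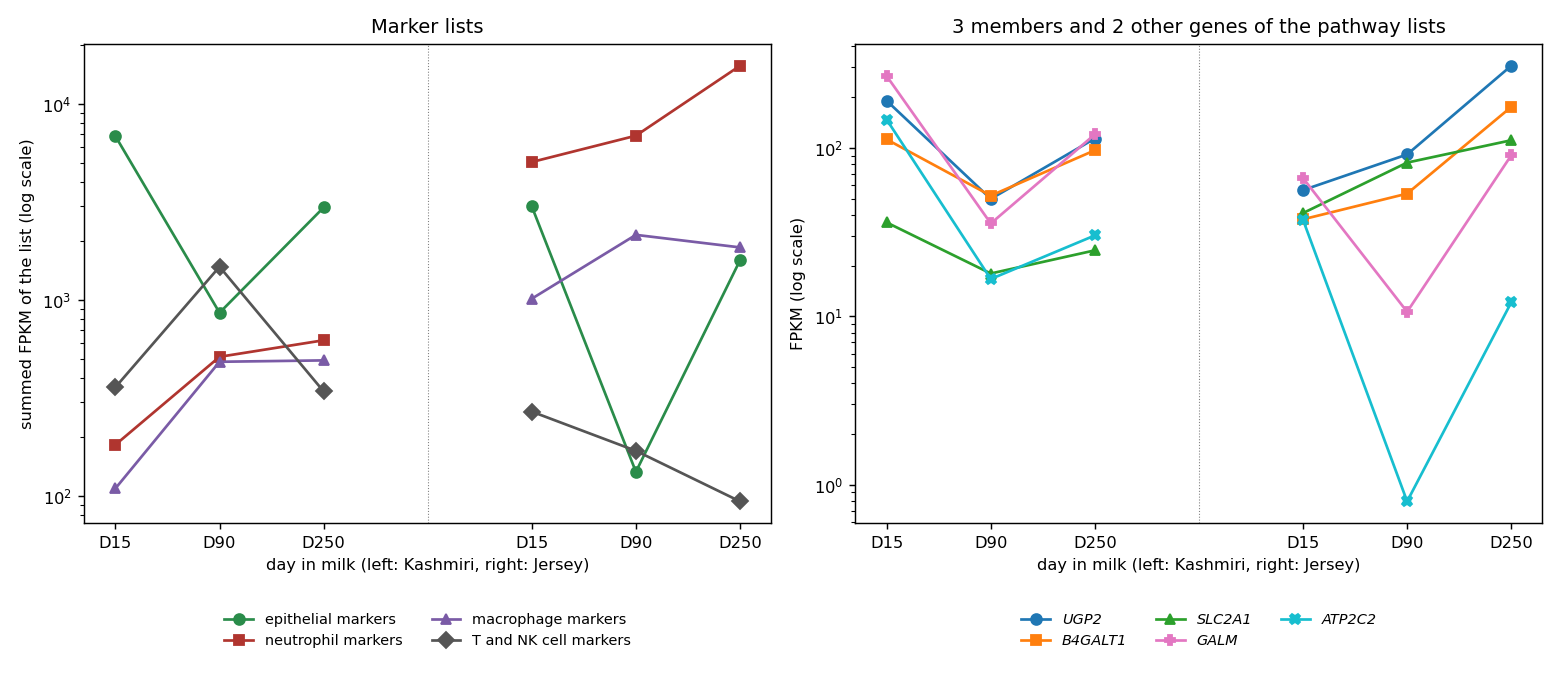
Left, summed FPKM (log scale) of the epithelial, neutrophil, macrophage and T and NK cell marker lists by stage, Kashmiri left and Jersey right of the dotted line; right, FPKM (log scale) of UGP2, B4GALT1, SLC2A1, GALM and ATP2C2 in the same groups, 1 value per group. The epithelial sum, GALM and ATP2C2 are all lowest in Jersey D90 (133, 10.6 and 0.796 FPKM), whereas UGP2, B4GALT1 and SLC2A1 stand there at 91.3, 53.5 and 81.7 FPKM. Among the Kashmiri groups the epithelial sum and all 5 genes on the right are lowest at D90.

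Some members followed each other over the groups and others did not. The distance between 2 genes was taken as the root mean square difference of their centred log2 FPKM over the 6 groups, a description over 6 values that share their libraries. The closest pair of members was UGP2 and B4GALT1 (0.33), followed by SLC2A1 and SLC35A2 (0.46). The farthest was SLC2A8 and UGP2 (1.46), followed by SLC2A1 and SLC2A8 (1.41), the pair of glucose transporters.

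Among 7116 genes of at least 1 FPKM in all groups, the nearest to UGP2 were LMTK2 and SLC39A8 (0.29 each) and NCOA4 (0.30), so B4GALT1 (0.33) lay only a little farther from it. The nearest to B4GALT1 were NBR1 (0.14), FOXO3 (0.15) and ARFGEF1 (0.27). DUSP16 and SPAG9 (0.21 each) and UBXN8 (0.23) were nearest to SLC2A1, and HSPBP1 (0.05), THOP1 (0.10) and SF3B5 (0.14) to SLC2A8. PTDSS1 (0.13) and GDE1 (0.14) were nearest to HK1, PDE6D, GCLM and SLC38A7 (0.11 to 0.18) to PGM1, and FAM32A, ENSA and KDM5C (0.08 to 0.15) to SLC35A2. No member was among the 3 nearest genes of another.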

How the data were processed

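The authors trimmed paired-end reads with Trimmomatic, aligned them with TopHat and Bowtie2 to the cattle genome UMD3.1, assembled transcripts with Cufflinks and estimated FPKM with Cuffdiff, and deposited 1 FPKM value per gene entry and group. The FPKM columns name breed and stage only. The column head Local was read as Kashmiri and stages 1, 2 and 3 as D15, D90 and D250. The study gives reads per library, not used here because the table pools libraries, and FPKM sums per group ranged from 533249 to 1023152.

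Python 3.11.15, numpy 2.4.6 and pandas 2.3.3 were used. For names with several entries the entry with the highest mean was taken, the members having 1 each. Genes above 0 in both groups and at 1 FPKM or more in either were compared by log2 ratio with a pseudocount of 1 FPKM, and called at a log2 ratio of 1 (2-fold). No test was possible with 1 value per group. Calling was run on simulated data with planted changes far beyond the call limit and little noise. That run checked the code only and cannot say how sure a call in these data is. The members and all gene lists were chosen with earlier results of these data known. Genes named besides the members are those of the lists, the 3 nearest to each member, and examples picked after their values were seen. A few genes are not reported here. Alternatives were other pseudocounts, limits and scalings. The reference table at hand is of another assembly, so no coordinate is given.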

Additional observations from a re-analysis of the deposited data

Results flagged for a closer look

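With 1 value per group none of the differences given here was tested. Each is a Jersey minus Kashmiri log2 ratio of a stage comparison, for members that went opposite ways in the breeds and differed by at least 1.

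From D15 to D90, 4 members were higher at D90 in Jersey and lower in Kashmiri cattle. The differences were 2.00 for SLC2A1, 2.64 for UGP2, 1.03 for SLC35A2 and 1.62 for B4GALT1. From D90 to D250, 2 members were lower at D250 in Jersey and higher in Kashmiri cattle, with differences of -1.004 for SLC2A8 and -1.58 for PGM1.

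From D15 to D250 the difference was 1.99 for SLC2A1, 3.20 for UGP2, 1.86 for SLC35A2 and 2.43 for B4GALT1, all higher at D250 in Jersey and lower in Kashmiri cattle, and -1.17 for HK1, with the opposite order. Scaled to the sum without milk protein genes, the D15 to D250 directions of SLC2A1, UGP2, SLC35A2 and B4GALT1 were no longer opposite, and B4GALT1 was not by the upper quartile either. Divided by the epithelial marker sum, none of these 11 results had opposite directions.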

How the results depend on the processing

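No paired analysis was possible because the labels number samples within each group but the table holds 1 pooled value per group, and for the same reason no replicate could be left out. The number of members called was the same in all 9 comparisons with a limit of 0.01 FPKM. With a pseudocount of 0.1 FPKM or none it went from 2 to 3 in Kashmiri D90 over D15 (SLC2A1 added), from 4 to 5 in Jersey D250 over D15 (SLC35A2) and from 4 to 5 for Jersey over Kashmiri at D250 (SLC2A8), and the 48 levels were the same with all entries of a name summed. For the settings that follow, only changes of the number by more than 1.5-fold, or to or from 0, are listed, and smaller changes also occurred. At a log2 limit of 2 the number went from 2 to 0 in Kashmiri D90 over D15, from 1 to 0 in Kashmiri D250 over D90, from 1 to 0 in Jersey D90 over D15, from 4 to 1 in Jersey D250 over D90, from 3 to 0 for Jersey over Kashmiri at D15 and from 4 to 1 at D250. It went from 0 to 1 in Kashmiri D250 over D15 and from 1 to 2 in Jersey D90 over D15 when genes at 0 were kept, and likewise under each of the 3 rescalings. Scaled to the sum it also went from 1 to 3 in Kashmiri D250 over D90 and from 3 to 6 for Jersey over Kashmiri at D90. Divided by the epithelial marker sum it went from 2 to 7, 1 to 6 and 0 to 2 in Kashmiri D90 over D15, D250 over D90 and D250 over D15, from 1 to 7 and 4 to 7 in Jersey D90 over D15 and D250 over D90, and from 3 to 8 for Jersey over Kashmiri at D90. This division reversed 6 called log2 ratios: Kashmiri D90 over D15 became 1.06 for UGP2 and 1.88 for B4GALT1, Kashmiri D250 over D90 -0.59 for UGP2, Jersey D90 over D15 2.99 for SLC2A8, and Jersey D250 over D90 -1.83 for UGP2 and -1.87 for B4GALT1. Over all genes, Jersey over Kashmiri at D250 had 2630 higher and 1334 lower as deposited, 1656 and 4441 scaled to the sum, and 1917 and 3097 by the upper quartile. The cause was not tested.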

Other observations

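Other users of the UDP-glucose that UGP2 makes were measured in the same groups. GYS1, the muscle-type glycogen synthase, had 2.54, 6.24 and 9.38 FPKM in the Kashmiri groups (series run D15, D90, D250) and 11.7, 24.9 and 37.4 FPKM in the Jersey groups, higher at each later stage in both breeds. UGCG, which builds glucosylceramide, was at 3.85, 7.0 and 12.3 FPKM in the Kashmiri groups and 4.33, 10.6 and 54.3 FPKM in the Jersey groups, where D250 held the highest value. TMEM165, a Golgi manganese and calcium handling protein that galactosyltransferases need, stayed between 10.7 and 20.0 FPKM in all groups. On the side of galactose salvage, GALK1, which phosphorylates galactose, was at 14.0, 22.3 and 14.7 FPKM in the Kashmiri groups and 81.5, 48.3 and 26.3 FPKM in the Jersey groups, and GALM, which interconverts the forms of free galactose and glucose, was at 267, 35.6 and 120.2 FPKM and at 66.1, 10.6 and 90.2 FPKM. SLC35B2, read from an entry that joins it with NFKBIE and so cannot be told from that gene, was at 51.2, 27.3 and 24.2 FPKM and at 94.2, 369 and 222 FPKM.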
